A study of Mus musculus with 24 samples.

Results

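Cxcl9, Cxcl10 and Cxcl16 encode chemokines, and Cxcr3 and Cxcr6 encode the receptors that bind them. These 5 genes were taken by their symbols from the 32285 genes counted in single cells of Panc02 tumors, 3 of them ligands and 2 of them receptors. CXCR3 is carried by activated T cells and NK cells and binds CXCL9 and CXCL10, which many cells secrete on exposure to interferon gamma. CXCL10 is also induced by type I interferon and by NF-kappaB. CXCR6 marks effector and tissue-dwelling T cells and binds CXCL16, which is made as a protein of the cell membrane, holds on to cells that carry the receptor, and is shed by the proteases ADAM10 and ADAM17. In tumors both receptors are known for their part in bringing T cells to the cells that present antigen and in keeping them there.

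Panc02, a mouse pancreatic tumor cell line, was grown under the skin of male wild-type C57BL/6 mice that were 6 to 7 weeks old at implantation. All groups carried the same tumor line, and they differed by 3 agents, given in all 8 combinations. PancVAX, a vaccine of tumor neoantigen peptides (50 ug of each peptide on days 12 and 19) given with AddaVax and a STING agonist, was replaced by PBS in the other groups, so that an effect of PancVAX joins the peptides with the adjuvants. Anti-PD-1 (100 ug in repeated doses from day 12) and anti-CTLA-4 (100 ug on days 15 and 22) were replaced by isotype antibody. Tumors were taken on day 38 and pooled by treatment. Each treatment has 1 library of whole tumor cells and 1 library enriched for immune cells on Percoll, for 16 RNA libraries, and the Percoll libraries came with 8 T cell receptor (TCR) libraries. The preparations are also the 2 sequencing batches, and the effects of the 2 cannot be told apart. The number of mice in a pool and whether both libraries of a treatment share mice are not given in the sources used here. A pool below stands for both libraries of a treatment, summed. P values therefore measure the spread between pools or libraries, which may be technical, and not between mice. Fits over the 8 pools had 1 pool for each treatment and a term for each agent, without interactions. The spread there is what these terms leave, and it also holds any interaction between agents. In the pairs of treatments below, the spread is what treatment and preparation leave.

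The deposited values are counts of unique molecular identifiers (UMIs) for each gene and barcode, with 77132398 to 176233225 UMIs in a library. Of 144994 barcodes, 57357 passed the limits of the study, which were 1000 to 10000 UMIs, 200 to 3000 genes, under 10% mitochondrial UMIs and no UMI of a hemoglobin gene. A library kept 1793 to 7413 cells with a median of 2782 to 4193 UMIs per cell. Among these cells, 2057 of 55243 barcode sequences occurred in more than 1 library. Clusters were named from marker genes, with the 5 members left out of the genes on which clusters were drawn, and a name ending in -like stands for a cluster and not for a sorted population. A low-UMI cluster (4568 of the 11845 macrophage-like cells) and neutrophil-like cells (median 1484 UMIs) were the shallowest of the large classes. The class called Sox9 stromal-like (7163 cells, led by Cxcl15, Ptgds, Prelp and Ogn) had 4 of 6 Sox9 stromal and 7 of 9 keratin tumor markers raised. It grew to 40301 cells without the upper limits. Gates on marker UMIs placed 4405 of its 7163 cells as tumor, 229 as fibroblast and 1108 in several gates. Its name is a label and does not set these cells apart from tumor cells. A cluster led by Il11 and Lif had no class name. It held 3519 cells, of which 2397 came from the Percoll library of PancVAX + Anti-PD-1, and grew to 20866 cells. In it 6 of 9 keratin tumor, 4 of 6 Sox9 stromal, 9 of 10 cycling T and 6 of 6 mast cell markers were raised. Gates on marker UMIs placed 1263 of its cells as tumor, 417 as macrophage, 200 as CD8+ T and 725 in several gates. Doublets were called in 3.01% of this cluster, and the part of transcripts of other cells in its levels was not tested. A further 2729 cells, from other clusters without a name, had doublets called in 7.51% and were left out of the order of classes. Over all cells doublets were called in 0.93%. In the Percoll library of PancVAX + Anti-PD-1 the caller did not work and marked 0.0% of the cells, so that doublets there were kept in every setting.

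Levels are given as CPM, the UMIs of a gene per 1000000 UMIs of all genes, summed over the cells of a class in a pool. The protocol primes each transcript at an end and the counts are not scaled by gene length, so that levels are compared between classes and pools and not between genes. A higher sum can come from more cells that hold a transcript or from more of it in each cell, and for that reason shares of cells with a UMI are given beside the main levels. Each cell was thinned to 1000 UMIs for such shares, since classes differed in depth. B cell–like cells (median 2038 UMIs) served as the background for the ligands and macrophage-like cells (median 3903 UMIs) as that for the receptors. After thinning, the background share was 2.55% ± 1.45% (mean ± SD, n = 8 pools) for Cxcl9, 1.06% ± 1.18% for Cxcl10 and 1.58% ± 1.32% for Cxcl16. For Cxcr3 it was 0.24% and for Cxcr6 0.10%. Where levels of pools are said below not to overlap, the share of all genes that separate in this way was not counted.

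In these tumors Cxcl9 was highest in macrophage-like cells. The 8 pools had a lowest level of 788 CPM, a median of 1135 and a highest of 1409 (mean 1136 ± 241 SD), and the gene was present in 41.7% ± 4.90% of the thinned cells (61.5% unthinned), well over the background. Endothelial-like cells (490 ± 232 CPM, 105.5 to 910) came next, and their 269 cells gave 22 to 56 per pool. Monocyte-like cells (357 ± 120 CPM) and cells like type 1 conventional dendritic cells (cDC1, 310 ± 83.7 CPM), which cross-present antigen to CD8+ T cells, followed. The 2729 cells without a name, which were not ranked, had 435 ± 134 CPM in pools with PancVAX and 287 ± 71.6 CPM in pools without. Macrophage-like cells were higher than endothelial-like cells in 8 of 8 pools, by 1.38 on the log2 scale. The exact two-sided permutation P was 0.0078, the smallest that 8 pools allow, and 0.0859 after adjustment over the 11 neighbors in the order. No neighbors in the order of Cxcl9 levels differed past the threshold. As shares of thinned cells, macrophage-like cells stood above the next class, cDC1-like cells (23.9%), at an adjusted P of 0.043 (exact permutation test). Neutrophil-like cells (71.8 ± 28.7 CPM) held a UMI of Cxcl9 in 3.98% of thinned cells, close to the background share.

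**Figure D1:**
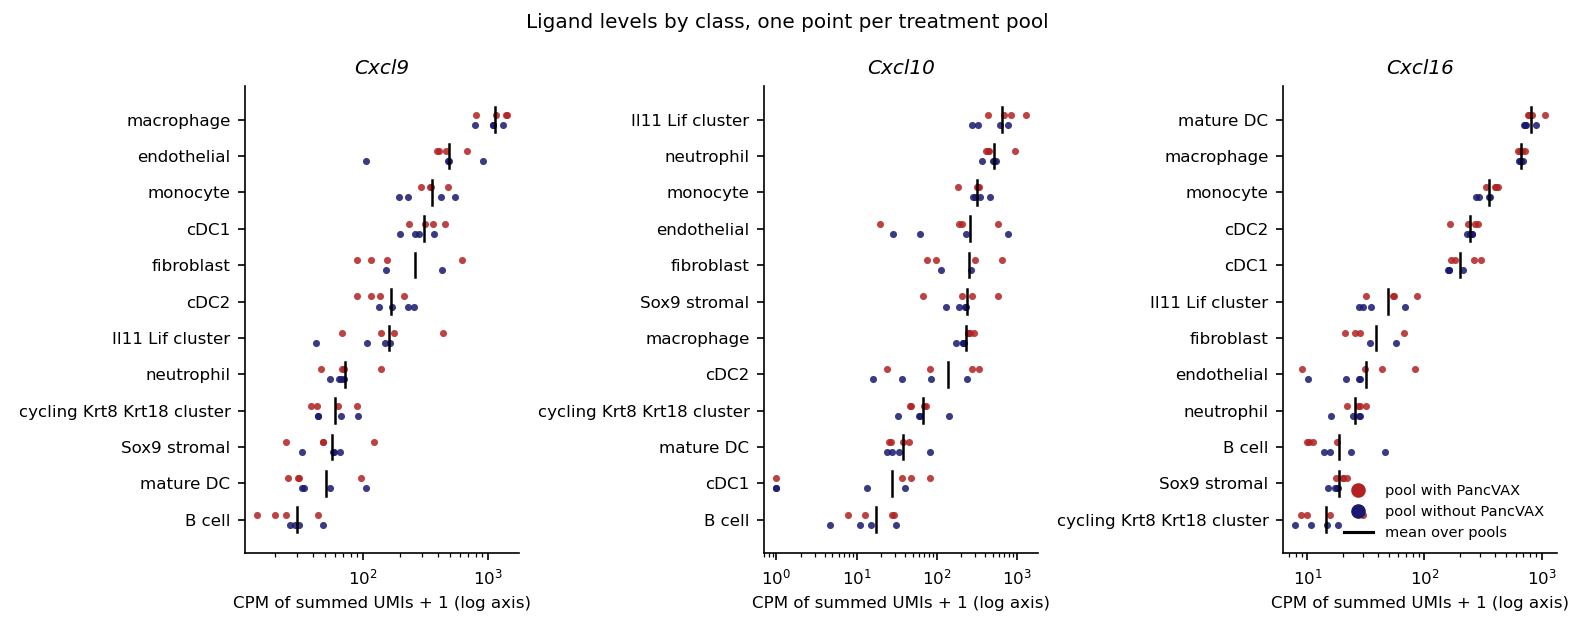
Levels of the ligands by class, with CPM of summed UMIs plus 1 on a log axis, a point for each treatment pool (with PancVAX in red, without in dark blue) and a bar at the mean. Macrophage-like cells lead for Cxcl9 at a mean of 1136 CPM, cells of the Il11 Lif cluster for Cxcl10 at 655, and mature dendritic-like cells for Cxcl16 at 812.

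Cxcl10 had another order of classes than Cxcl9, with the Il11 Lif cluster first and neutrophil-like cells next. The highest level was that of the Il11 Lif cluster (655 ± 326 CPM), with a lowest pool of 273, a median of 647 and a highest pool of 1281. Neutrophil-like cells were next at 522 ± 178 CPM (368 to 938), and this pair did not differ past the threshold (exact permutation test, adjusted P = 0.7047). Neutrophil-like cells were above monocyte-like cells (319 ± 74.7 CPM) in 8 of 8 pools, by 0.69 on the log2 scale (exact permutation test, adjusted P = 0.043). With cells gated on marker UMIs monocytes were above neutrophils by 0.15, and in 4 of 8 pools (exact permutation test, adjusted P = 0.8906). Macrophage-like cells had 231 ± 35.9 CPM and Sox9 stromal-like cells 238 ± 154 CPM. A UMI was found in 11.7% ± 1.88% of the thinned neutrophil-like cells, with a mean of 5.85 UMIs in unthinned cells that had any and up to 90 in 1 cell. The thinned share of macrophage-like cells was 11.1% ± 1.77%, and its difference from that of neutrophil-like cells did not pass (exact permutation test, adjusted P = 0.6875). As a share of cells, the Il11 Lif cluster stood highest at 23.6% ± 7.71%. Among T cells, an interferon CD8+ T–like cluster, led by Ifit1 and Ifit3, had 543 ± 253 CPM over 7 pools, against 34.4 ± 14.1 CPM in cytotoxic CD8+ T–like and 27.0 ± 17.1 CPM in exhausted CD8+ T–like cells. Interferon-induced genes drew this cluster, so that its level is a description only. Thinned shares in cytotoxic-like and exhausted-like cells were 2.36% and 1.82%, near the background, and naive CD8+ T–like cells had 1.81%. The share was 18.78% in the interferon cluster. It was also above the background in gamma-delta T–like (10.15%, 3 pools), cycling CD8+ T–like (7.68%, 3 pools), regulatory T–like (7.2%) and CD4+ helper T–like cells (6.07%). Cxcl10 in T cells was therefore not confined to the interferon cluster.

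Over the 5 clusters of macrophage-like cells, mean levels ran from 43.6 to 1275 CPM for Cxcl10, 878 to 1927 CPM for Cxcl9 and 475 to 781 CPM for Cxcl16. A cluster of 271 cells led by the interferon-induced genes Cmpk2, Ifit3 and Ifit2 had 1275 ± 316 CPM of Cxcl10, and the cluster led by Ighg2b and Fcrl5 (975 cells) had 43.6 ± 9.53 CPM. These clusters had 1927 ± 743 and 960 ± 172 CPM of Cxcl9. Since interferon-induced genes drew the first of these clusters, its levels are given as a description only. Of the neutrophil-like cells, the cluster led by Siglecf (5547 cells) had 363 ± 54.2 CPM of Cxcl10. The cluster led by Retnlg (2516 cells) had 873 ± 475 CPM, with 1984 CPM in the pool of PancVAX and a lowest pool of 508. In the same thinned macrophage-like cells, Cxcl10 was found in 15.5% of 4921 cells with Cxcl9 and in 7.87% of 6924 cells without it, and was the more frequent beside Cxcl9 in 8 of 8 pools. Cxcl16 was found in 44.9% and 42.2% of these cells, higher beside Cxcl9 in 6 of 8 pools.

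Cxcl16 was highest in mature dendritic-like and macrophage-like cells. Mature dendritic-like cells, led by Ccl22 and Fscn1, had 812 ± 120 CPM (704 to 1060), and macrophage-like cells had 668 ± 28.2 CPM (634 to 721). Monocyte-like cells had 357 ± 53.5 CPM, cells like type 2 conventional dendritic cells (cDC2) 242 ± 36.3 CPM and cDC1-like cells 201 ± 54.8 CPM. The order of levels held from pool to pool, with mature dendritic-like cells over macrophage-like cells by 0.27, these over monocyte-like cells by 0.92, and these over cDC2-like cells by 0.56 on the log2 scale, each in 8 of 8 pools (exact permutation test, adjusted P = 0.0215). The levels of cDC2-like and cDC1-like cells did not differ past the threshold (exact permutation test, adjusted P = 0.1576). Below cDC1-like cells the level dropped by 2.14 on the log2 scale to the Il11 Lif cluster (47.4 ± 21.3 CPM). Neutrophil-like cells (24.6 ± 4.85 CPM) held a UMI in 2.35% of thinned cells, near the background. Of thinned cells, 49.1% ± 9.17% of the mature dendritic-like and 43.5% ± 1.65% of the macrophage-like held Cxcl16. As shares, neither mature dendritic-like over macrophage-like cells (6 of 8 pools) nor monocyte-like over cDC2-like cells (7 of 8 pools) passed (exact permutation test, adjusted P = 0.3438 and 0.0859). The level in macrophage-like cells had an SD over pools of 28.2 on 668 CPM, against 241 on 1136 for Cxcl9 and 35.9 on 231 for Cxcl10.

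In the whole tumor libraries macrophage-like cells held most of the UMIs of Cxcl9 and Cxcl16, while the cells that held most of Cxcl10 changed with the upper limits on UMIs and genes, which were lifted together. Within the limits, macrophage-like cells were 24.9% ± 4.84% of the cells in the 8 whole tumor libraries. They held 81.0% ± 4.92% of the 40426 Cxcl9 UMIs, 79.9% ± 4.52% of the 24500 Cxcl16 UMIs and 33.0% ± 6.94% of the 20369 Cxcl10 UMIs. Sox9 stromal-like cells held 18.2% ± 9.66% of Cxcl10, neutrophil-like cells 14.9% ± 6.79%, and the Il11 Lif cluster 10.7% ± 9.51%. Without the upper limits Cxcl10 had 312576 UMIs. The share of the Il11 Lif cluster was then 54.5% ± 8.22%, that of Sox9 stromal-like cells 33.2% ± 7.16%, and that of macrophage-like cells 5.47% ± 2.34%. Macrophage-like cells still held the largest share of Cxcl9 (52.1% ± 8.25% of 139634 UMIs) and of Cxcl16 (66.9% ± 7.38% of 56975 UMIs). The level of Cxcl10 in the Il11 Lif cluster was 710 ± 145 CPM without the limits.

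**Figure D2:**
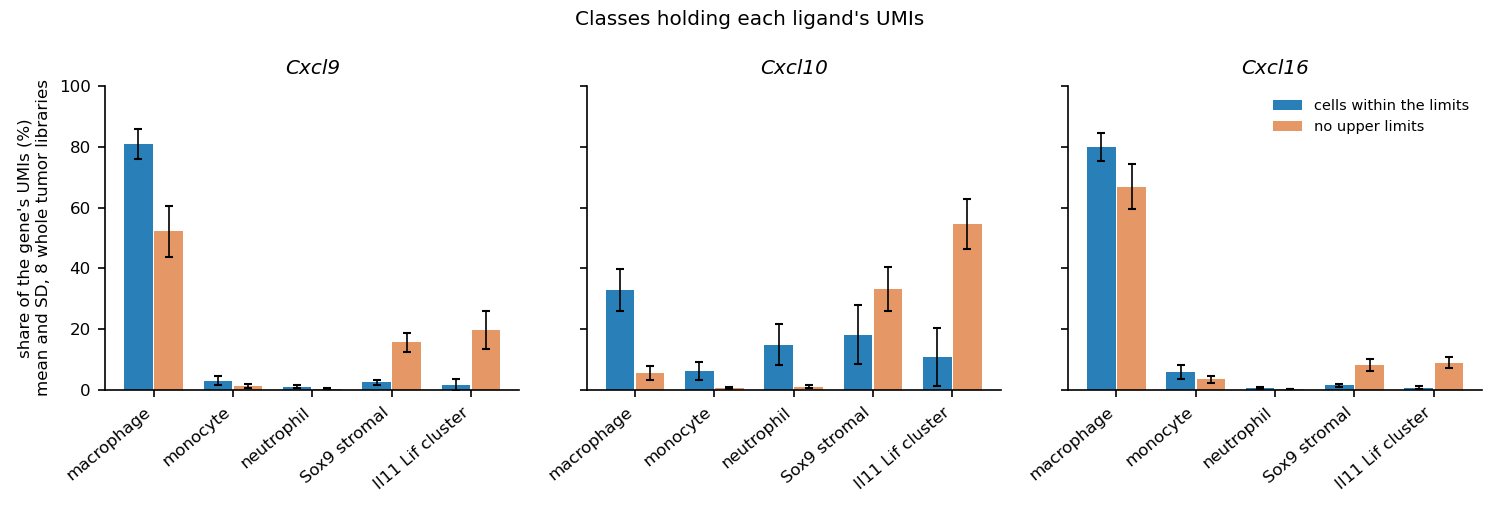
Share of each ligand's UMIs that lies in each of 5 classes, in percent, as the mean over the 8 whole tumor libraries with SD bars, for cells within the limits (blue) and without upper limits (orange). The macrophage-like share of Cxcl10 is 33.0% within the limits and 5.47% without, while that of the Il11 Lif cluster is 10.7% and 54.5%.

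Cxcl9 and Cxcl10 lie side by side on chromosome 5 (GRCm38.p6, Cxcl9 at chr5:92321331-92328079 and Cxcl10 at chr5:92346638-92348889), Cxcl16 on chromosome 11 (chr11:70454389-70459984), Cxcr6 on chromosome 9 (chr9:123806477-123811754) and Cxcr3 on the X chromosome (chrX:101731535-101734147), all as protein-coding genes of RefSeq. The files list them as ENSMUSG00000029417 (Cxcl9), ENSMUSG00000034855 (Cxcl10), ENSMUSG00000018920 (Cxcl16), ENSMUSG00000050232 (Cxcr3) and ENSMUSG00000048521 (Cxcr6). Start site windows of 300 bases from RefSeq were used for 4 of the 5 genes, and that of Cxcl16 was not analysed here. The windows of Cxcl9 (chr5:92328030-92328329, minus strand) and Cxcl10 (chr5:92348840-92349139, minus strand) are shown because these neighbors bind the same receptor and differed in the classes that held them. Capitals mark matches to 4 motifs searched on both strands, GAAA with any 2 bases and GAAA of the interferon-stimulated response element, TTCNNNGAA of the gamma-activated site, the NF-kappaB consensus, and the T-box core GGTGTGA.
Cxcl9: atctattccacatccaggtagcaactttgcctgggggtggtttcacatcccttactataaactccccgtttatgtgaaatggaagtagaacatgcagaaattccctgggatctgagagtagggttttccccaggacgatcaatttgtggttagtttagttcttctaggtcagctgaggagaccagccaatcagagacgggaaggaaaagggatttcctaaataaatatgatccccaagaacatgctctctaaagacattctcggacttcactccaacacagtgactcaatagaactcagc
Cxcl10: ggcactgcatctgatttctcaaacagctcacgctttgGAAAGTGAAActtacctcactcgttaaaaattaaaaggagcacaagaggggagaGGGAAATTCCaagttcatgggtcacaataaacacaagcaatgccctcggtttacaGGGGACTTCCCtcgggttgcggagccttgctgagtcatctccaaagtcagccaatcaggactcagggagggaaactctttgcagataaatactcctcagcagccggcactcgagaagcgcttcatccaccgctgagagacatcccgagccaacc

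The Cxcl10 window held the interferon-stimulated response element at -213 to -204 from the start site and the NF-kappaB consensus at -159 to -150, -104 to -95 and -103 to -94. The last 2 overlap, and the last reads on both strands. No letters of the 4 motifs were found in this window of Cxcl9, Cxcr3 or Cxcr6. The search misses elements that differ from these letters or lie outside the window, and does not show that a gene lacks them. Over 32851 windows of the same length, 3.44% held the interferon-stimulated element, 8.3% the gamma-activated site, 8.46% the NF-kappaB consensus and 3.98% the T-box core. Across 26 classes, the genes whose mean log2 levels were most like those of Cxcl10 were Gbp2 (Pearson r = 0.807), Oasl2 (0.803), Isg15 (0.771), Rtp4 (0.731) and Rsad2 (0.730). These are interferon-induced genes. Those most like Cxcl9 were Tgfbi (0.874), Acvrl1 (0.873), Dab2 (0.856), Phf11d (0.846) and Hfe (0.839). Of these, Phf11d was also among the genes raised in the macrophage-like cluster led by Cmpk2, Ifit3 and Ifit2. Those most like Cxcl16 were Batf3 (0.910) and Renbp (0.906). Cxcl9 had an r of 0.445 with Cxcl10 and 0.778 with Cxcl16. Classes share libraries and depth, so that these values describe likeness only.

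Cxcr3 was highest in 4 T cell classes, whose neighbors in the order did not differ past the threshold. CD4+ helper T–like cells had 142 ± 30.0 CPM (87.0 to 175), regulatory T–like cells 138 ± 53.5 CPM (84.0 to 246), cytotoxic CD8+ T–like cells 131 ± 22.2 CPM (94.9 to 165) and interferon CD8+ T–like cells 119 ± 34.1 CPM over 7 pools. Neighbors among these had adjusted P of 0.3594 to 0.9688 (exact permutation test). Naive CD8+ T–like cells had 53.4 ± 8.92 CPM, NK-like cells 38.0 ± 21.4 CPM and exhausted CD8+ T–like cells 16.6 ± 4.76 CPM (9.89 to 23.4). A CD8+ T cell cluster led by Gzmd and Gzme had 16.0 ± 15.0 CPM (0 to 38.8) from 26 UMIs. Its 10 leading genes also held Myo10, Rhox5, Mgp, Krt8 and Wfdc2, and 4 of 9 keratin tumor, 3 of 6 Sox9 stromal and 4 of 8 fibroblast markers were raised in it. The part of transcripts of other cells in its receptor levels was not tested. Interferon CD8+ T–like cells were above naive-like cells in 7 of 7 pools, by 1.10 on the log2 scale, and NK-like cells above exhausted-like cells in 7 of 8, yet neither passed (exact permutation test, adjusted P = 0.125 for both). In thinned cells the share with Cxcr3 was 14.2% of CD4+ helper T–like, 13.9% of cytotoxic CD8+ T–like and 12.1% of regulatory T–like cells, against 1.90% of exhausted CD8+ T–like cells. Cycling CD8+ T–like cells, of which 3 pools with PancVAX held enough, had 95.5 ± 43.8 CPM and the highest thinned share of Cxcr3, 16.5%, from 115 cells in all. Outside the T and NK cells, cDC1-like cells had 37.3 ± 16.4 CPM (8.29 to 56.1) and plasmacytoid dendritic-like cells 28.2 and 84.7 CPM in the 2 pools with enough cells.

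Among CD8+ T cells Cxcr6 was highest in exhausted-like cells. Exhausted CD8+ T–like cells, with the inhibitory receptor gene Lag3 and the factor Tox among their leading genes, had 534 ± 72.1 CPM (451 to 684). They were above the cluster led by Nrgn and Pclaf (407 ± 86.0 CPM) in 8 of 8 pools (exact permutation test, adjusted P = 0.0208). Cytotoxic CD8+ T–like cells, led by Ccl5 and Ly6c2, had 282 ± 45.7 CPM (230 to 375), and naive-like cells 35.8 ± 13.5 CPM. The Gzmd Gzme cluster, with a mean of Cxcr3 close to that of exhausted-like cells, had 223 ± 41.9 CPM of Cxcr6. Of CD4+ T cells, helper-like cells had 235 ± 96.3 CPM and regulatory-like cells 92.4 ± 45.5 CPM, a difference of 1.33 on the log2 scale in 8 of 8 pools (exact permutation test, adjusted P = 0.0208). NK-like cells had 54.5 ± 15.2 CPM, and their difference from regulatory-like and from naive-like cells did not pass (exact permutation test, adjusted P = 0.0781 and 0.0833). The highest values were those of 2 small clusters. Gamma-delta T–like cells, led by Il17a, had 853 ± 215 CPM in 3 pools, and a T cell cluster led by Csf2 and Ccl1 had 664 ± 95.5 CPM in 5 pools. In thinned cells Cxcr6 was found in 58.7% of gamma-delta T–like, 38.7% of exhausted CD8+ T–like, 23.4% of cytotoxic CD8+ T–like and 17.9% of CD4+ helper T–like cells. As shares, exhausted-like cells were above the Nrgn Pclaf cluster in 7 of 8 pools, and neither this nor any other neighbors in the order of Cxcr6 passed (exact permutation test, lowest adjusted P = 0.0625).

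**Figure D3:**
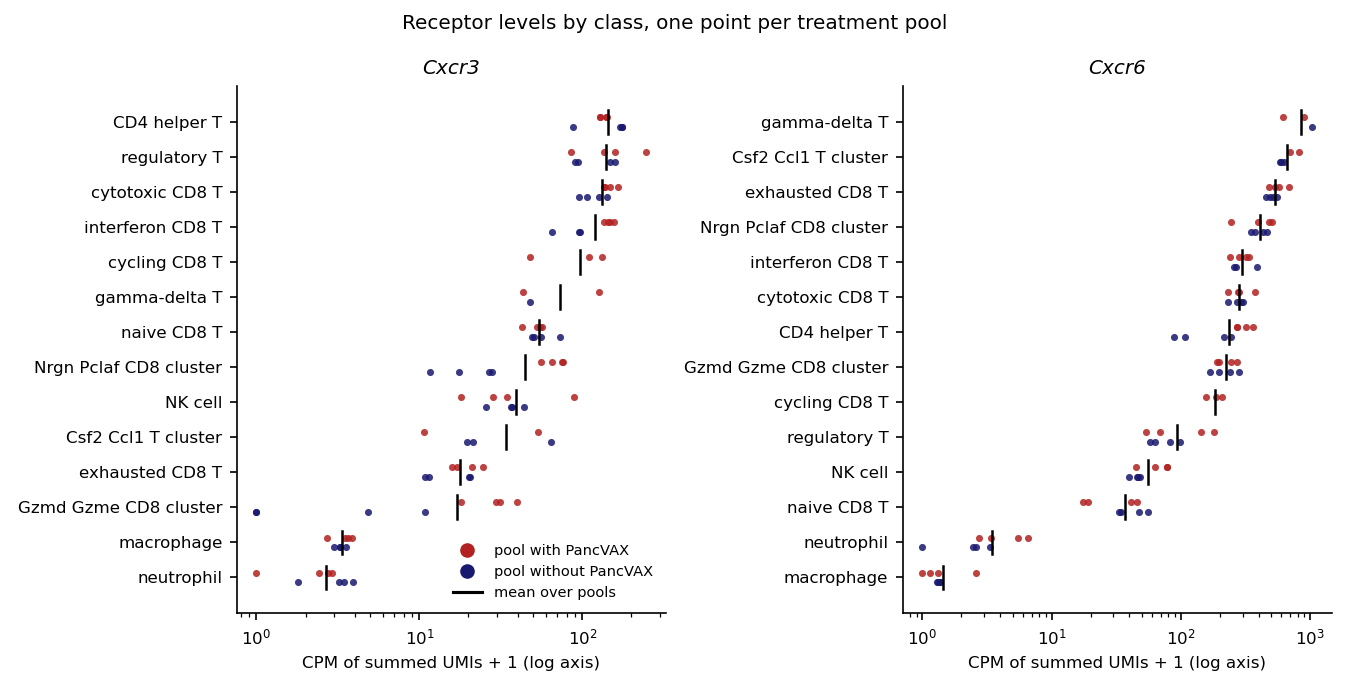
Levels of the receptors by class, with CPM of summed UMIs plus 1 on a log axis, a point for each treatment pool (with PancVAX in red, without in dark blue) and a bar at the mean, and with macrophage-like and neutrophil-like cells as background. Exhausted CD8+ T–like cells lie near the bottom of the T cells for Cxcr3 (mean 16.6 CPM) and near the top for Cxcr6 (534 CPM).

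Both receptors were found in the same cytotoxic CD8+ T–like cells. After thinning, Cxcr6 was present in 27.9% of 544 such cells with Cxcr3 and in 22.6% of those without it, higher beside Cxcr3 in 6 of 7 pools. In exhausted CD8+ T–like cells the shares were 33.3% and 38.1%, higher in 1 of 5 pools. Across the 26 classes the receptors had an r of 0.746 with each other. The genes most like Cxcr3 were Gna15 (0.906), which encodes a G protein subunit of blood cells, Grap2 (0.889), Itgb7, Cd28 and Sytl1 (each 0.864). Those most like Cxcr6 were the T cell receptor genes and signaling genes Trbc2 (0.976) and Zap70 (0.974).

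PancVAX went with more Cxcr3 in CD8+ T cells, summed over all their clusters. The pools without PancVAX had 23.4, 26.2, 29.8 and 33.5 CPM (isotype control, anti-PD-1, anti-CTLA-4 and both antibodies), and the pools with it had 103, 101, 92.3 and 88.1 CPM in the same order of antibodies. All 4 pools with PancVAX were above all 4 without it. The log2 fold change over the 8 pools was 1.69 (SE 0.11, 95% interval 1.44 to 1.93, edgeR with Benjamini-Hochberg, adjusted P = 2.26e-06). The exact permutation P was 0.0286, the smallest that 4 against 4 pools allow. The lack of overlap fixes that value, so that it adds nothing to it. In CD8+ T cells 10.9% of 10965 genes were called by the same rule, an adjusted P below 0.05 and a log2 fold change above 0.5 in size. Cxcr6 in the same cells had 403, 350, 349 and 394 CPM without PancVAX and 377, 290, 284 and 392 CPM with it, overlapping ranges, and a log2 fold change of -0.22 (edgeR, adjusted P = 0.171).

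The CD8+ T cells of the pools were not the same mixture. Cytotoxic-like cells were 3.9% to 6.4% of CD8+ T cells without PancVAX and 50.0% to 59.1% with it, and exhausted-like cells 49.6% to 62.7% and 13.7% to 22.7%. With each cluster held at its level in the UMIs of all pools summed, this mixture gave 92.9 ± 3.23 CPM of Cxcr3 with PancVAX and 32.5 ± 1.92 CPM without. The ratio was 2.86 against the 3.41 found. In such sums cytotoxic-like cells come mostly from pools with PancVAX and exhausted-like cells mostly from pools without it. The 2.86 can therefore hold differences within clusters and is not the part of the mixture alone. With the same mixture set for every pool, the levels were 69.4 ± 4.44 and 55.4 ± 8.08 CPM, a ratio of 1.25. For Cxcr6 the ratio was 0.898 as found and 0.812 from the mixture. With the same mixture in every pool it was 1.107 (372.6 ± 47.7 CPM with PancVAX and 336.7 ± 16.8 CPM without). Within the CD8+ T cell clusters tested no change of Cxcr3 was called, though levels in some did not overlap between pools with and without PancVAX. In cytotoxic-like cells the pools without PancVAX had 106, 126, 94.9 and 140 CPM from only 31 to 79 cells each, and those with it 165, 146, 135 and 136 CPM (log2 fold change 0.31, 95% interval -0.04 to 0.66, edgeR, adjusted P = 0.506), where 2.29% of genes were called. In exhausted-like cells the change was 0.25 (edgeR, adjusted P = 0.711), where 0.362% of genes were called, and in naive-like cells it was -0.15. In interferon CD8+ T–like cells the 3 pools without PancVAX had 63.8 to 96.2 CPM and the 4 with it 135 to 155 CPM, which did not overlap (0.70, SE 0.26, edgeR, adjusted P = 0.181). In 2 further clusters Cxcr3 did not pass the filter on low counts and was not tested by edgeR. That led by Nrgn and Pclaf had 66 UMIs, at 10.6 to 26.7 CPM without PancVAX and 54.9 to 75.5 CPM with it. The Gzmd Gzme cluster, with its 26 UMIs, was at 0 to 9.85 CPM without PancVAX and 17.1 to 38.8 CPM with it. In each of these 3 clusters the levels did not overlap. That fixes the exact permutation P of levels at its smallest value, 0.0286 (not adjusted), so that this P adds nothing to the lack of overlap.

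**Figure D4:**
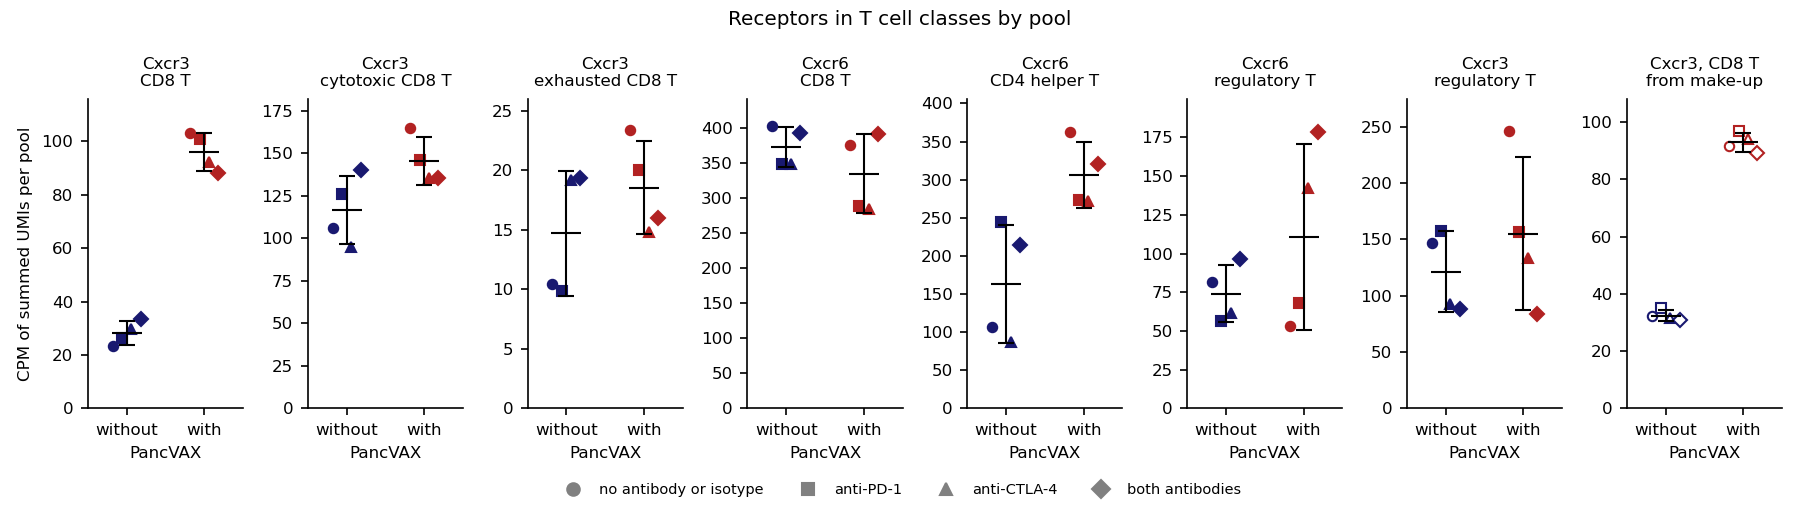
Cxcr3 and Cxcr6 in T cell classes, as CPM of summed UMIs for each pool without (dark blue) and with (red) PancVAX, with the mean and SD of 4 pools and a symbol for the antibodies. The panel with open symbols gives the Cxcr3 level of CD8+ T cells from their mixture of clusters, at 32.5 CPM without and 92.9 CPM with PancVAX. Each cluster is held there at its level in the UMIs of all pools summed.

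Cxcr6 rose with PancVAX in CD4+ helper T–like cells. The levels were 107, 245, 87.0 and 214 CPM in the pools without PancVAX and 362, 273, 272 and 320 CPM in those with it, which did not overlap. The log2 fold change was 0.84 (SE 0.20, 95% interval 0.42 to 1.25, edgeR, adjusted P = 0.0145), in a class where 3.9% of genes were called. The pools without PancVAX held 39 to 65 of these cells and those with it 134 to 391. The call was lost without the isotype control pool (0.69, adjusted P = 0.102) or without the anti-CTLA-4 pool (0.63, adjusted P = 0.139, edgeR), the pools with the lowest levels, and with cells gated on marker UMIs (0.33, adjusted P = 0.396). Cxcr3 in the same cells was at -0.19 (edgeR, adjusted P = 0.692). Cxcr6 in cytotoxic-like (0.06), exhausted-like (0.12) and NK-like cells (0.46) and both receptors in regulatory T–like cells (Cxcr3 0.29, Cxcr6 0.54) were not called.

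The ligands had no called effect of PancVAX in any of the 29 tests over 11 classes, none of them of T cells. In macrophage-like cells 0.0% of genes were called. Cxcl9 had 788, 1097, 1106 and 1327 CPM without PancVAX and 1409, 1164, 809 and 1389 CPM with it, overlapping over nearly the whole range (log2 fold change 0.13, 95% interval -0.23 to 0.49, edgeR, adjusted P = 0.854). Cxcl10 had 174 to 216 CPM without and 241 to 293 CPM with PancVAX, which did not overlap, at 0.32 (SE 0.09, edgeR, adjusted P = 0.386). Cxcl16 had a change of -0.01 with an interval of -0.13 to 0.12, so that an effect of 0.5 on the log2 scale lies outside the interval. In neutrophil-like cells, where 0.182% of genes were called, Cxcl10 was at 0.10 and Cxcl9 at 0.24 (edgeR, adjusted P = 0.942 and 0.881). Cxcl10 was at 0.20 in Sox9 stromal-like cells and 0.67 in the Il11 Lif cluster (edgeR, adjusted P = 0.858 and 0.660). The value of the Il11 Lif cluster was 0.25 without the PancVAX pool, 1.10 without that of PancVAX + Anti-CTLA-4 and 0.04 without upper limits on UMIs and genes, and it was called with no filter on low counts (0.70, edgeR, adjusted P = 0.0311). In T cells the levels of Cxcl10 did not overlap between pools in 2 sums. CD8+ T cells, with the mixtures given above, had 24.1 to 33.7 CPM without PancVAX and 45.4 to 140 CPM with it. CD4+ helper T–like cells had 71.7 to 185 CPM without and 47.9 to 62.0 CPM with it. The exact permutation P was 0.0286 for both (not adjusted), a value that the lack of overlap fixes. By edgeR, 10.9% and 3.9% of all genes were called in these sums. In interferon CD8+ T–like cells the ranges overlapped, at 315 to 465 and 223 to 915 CPM.

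For all 3 agents together, 2 of 132 tests of a member in a class were called and 19 had an unadjusted P below 0.05 (edgeR). Over all genes and classes 0.505% of tests were called, a share that joins the 3 agents. The shares of anti-PD-1 and anti-CTLA-4 alone are not given here, and a lack of calls for them is not read as particular to the members. None of the 44 tests of anti-PD-1 and none of the 44 tests of anti-CTLA-4 was called (8 and 4 with an unadjusted P below 0.05). The lowest adjusted P values among these were those of anti-CTLA-4 in regulatory T–like cells, while the effects largest in size were on ligands (-1.80 to 1.24). Without anti-CTLA-4 these cells had 147 (isotype control), 158 (anti-PD-1), 246 (PancVAX) and 157 CPM (PancVAX + Anti-PD-1) of Cxcr3, and with it the same 4 backgrounds had 92.5, 88.6, 134 and 84.0 CPM. These values did not overlap, and the log2 fold change was -0.81 (SE 0.18, edgeR, adjusted P = 0.0862). Cxcr6 in the same cells had 81.7, 56.4, 53.1 and 68.1 CPM without anti-CTLA-4 and 61.6, 96.7, 143 and 179 CPM with it, overlapping at the low end, at 0.94 (SE 0.23, edgeR, adjusted P = 0.268). Both were called without the isotype control pool and with no filter on low counts.

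The study set PancVAX against isotype control and PancVAX with both antibodies against PancVAX, each with 2 libraries a treatment, and these comparisons share the PancVAX libraries. Of 36 tests of a member in a class, 4 were called for PancVAX against isotype control, all higher with PancVAX, and 15 had an unadjusted P below 0.05. Cxcr3 in CD8+ T cells had 19.2 CPM (whole tumor) and 29.4 CPM (Percoll) with isotype control and, in that order, 98.3 and 108 CPM with PancVAX (log2 fold change 2.09, SE 0.19, edgeR, adjusted P = 5.44e-08), with 7.24% of genes called. Cxcr6 in CD4+ helper T–like cells, where 0.421% of genes were called, was at 1.79 and was not called (edgeR, adjusted P = 0.0731).

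Cxcl9 in macrophage-like cells was called in this pair though not over the 8 pools. The isotype control libraries had 797 and 765 CPM and the PancVAX libraries 1504 and 1288 CPM, a log2 fold change of 0.82 (SE 0.10, edgeR, adjusted P = 4.78e-05), with 0.563% of genes called. Isotype control was the lowest and PancVAX the highest of the 8 pools, and the pool of PancVAX + Anti-CTLA-4 (809 CPM) lay beside isotype control. Cxcl10 in neutrophil-like cells had 378 and 356 CPM with isotype control and 725 and 1094 CPM with PancVAX, at 1.42 (SE 0.24, edgeR, adjusted P = 0.00782), with 0.252% of genes called. Cxcl9 in neutrophil-like cells (73.0 and 30.1 CPM against 117 and 156) was at 1.51 (SE 0.28, edgeR, adjusted P = 0.0104). Its share of cells with a UMI is near the background, and the part of free RNA in this value was not tested. With both antibodies added to PancVAX, Cxcl10 in neutrophil-like cells was lower, at 531 and 351 CPM (-1.11, SE 0.24, edgeR, adjusted P = 0.0357, 0.267% of genes called). It was the only member called in this pair, of 36 tests with 11 at an unadjusted P below 0.05. The calls of Cxcl10 in neutrophil-like cells needed nearly every library. Against isotype control the call was lost without the Percoll library of PancVAX (0.95) or either isotype control library (1.39 and 1.46, edgeR, adjusted P = 0.101 and 0.056). With both antibodies it was lost without the Percoll library of PancVAX (-0.62) or either library of both antibodies (-1.28 and -0.93), and in DESeq2 (-1.10, adjusted P = 0.528). The call of Cxcl9 was lost without the Percoll library of PancVAX (1.04) or that of isotype control (1.14). In regulatory T–like cells, where 0.0% of genes were called, Cxcr3 was at -1.57 and Cxcr6 at 1.73 (edgeR, adjusted P = 0.191 for both).

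**Figure D5:**
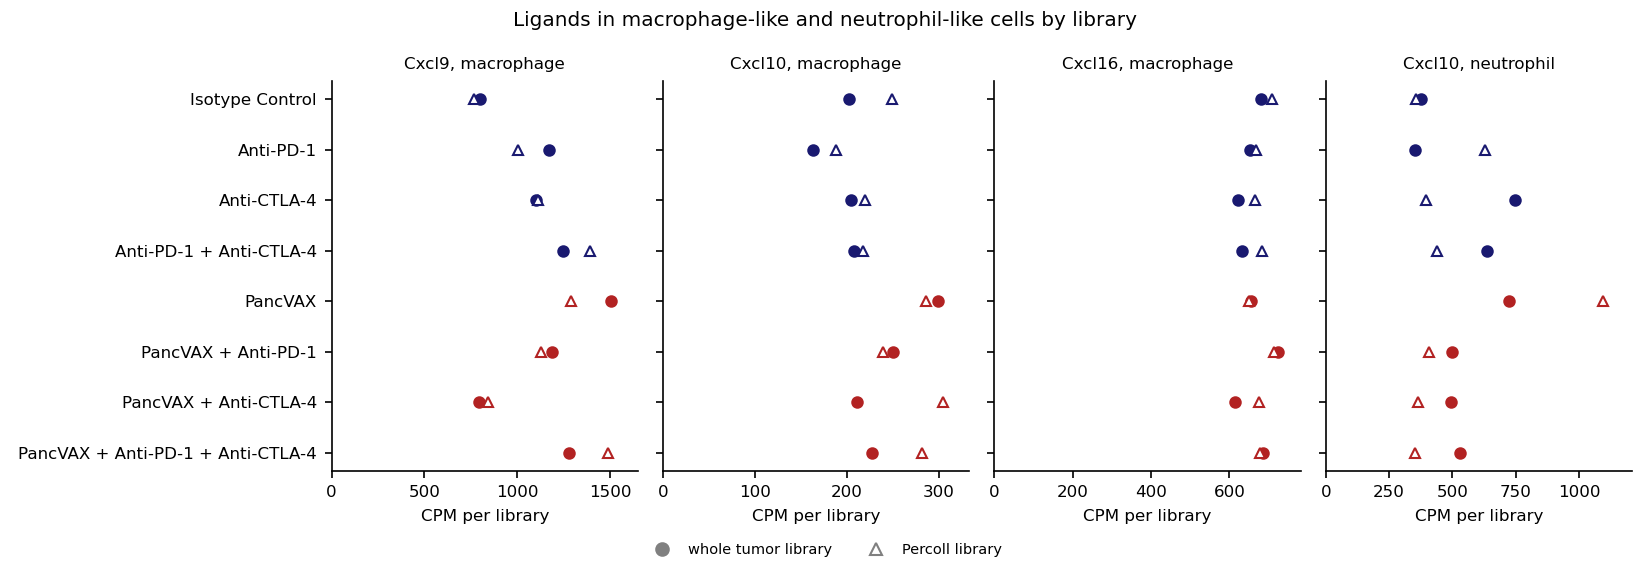
Ligands in macrophage-like and neutrophil-like cells as CPM for each library, with treatments down the side (without PancVAX in dark blue, with it in red), filled circles for whole tumor and open triangles for Percoll libraries. Cxcl9 in macrophage-like cells runs from 765 CPM (isotype control, Percoll) to 1504 CPM (PancVAX, whole tumor), and Cxcl10 in neutrophil-like cells reaches 1094 CPM in the Percoll library of PancVAX.

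The preparation moved 2 of 45 tests of a member in a class, with 10 at an unadjusted P below 0.05. Cxcl10 in Sox9 stromal-like cells was higher in Percoll than in whole tumor libraries in 7 of 8 treatments (0.70, SE 0.15, edgeR, adjusted P = 0.00261, 2.47% of genes called), most of all with PancVAX + Anti-PD-1 (739 against 215 CPM). Without that treatment the difference was 0.50 (edgeR, adjusted P = 0.00141). Cxcl9 in endothelial-like cells was lower in Percoll libraries (-1.27, SE 0.23, edgeR, adjusted P = 0.0242, 0.801% of genes called), over 8 libraries with at least 10 such cells, and this call was lost in 3 of the fits that left out 1 treatment (-1.41 to -1.21). Another cluster of 349 cells, 99.4% of them from Percoll libraries, had 8 of 8 endothelial and 7 of 9 keratin tumor markers raised. It was left without a name and is not in this comparison. In macrophage-like cells, where 5.34% of genes were called, Cxcl10 was higher by 0.23, past the adjusted threshold (0.00407) but not that of size. Whether PancVAX acted differently in the preparations was tested in 44 member tests, of which none was called and 4 had an unadjusted P below 0.05 (edgeR, smallest adjusted P = 0.949), against 0.00528% of all genes tested.

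Expanded clones of CD8+ T cells held more Cxcr6 and less Cxcr3 over the 8 Percoll libraries. In the Percoll libraries 4787 of 5791 CD8+ T cells had a TCR beta chain, and they fell in 2425 clones, of which 657 had at least 2 cells and the largest 79. Cxcr6 had 443 ± 85.6 CPM in cells of clones of at least 2 and 232 ± 52.0 CPM in cells of clones of 1, higher in 8 of 8 libraries by 0.94 on the log2 scale (exact permutation test, P = 0.0078, adjusted P = 0.0156). Cxcr3 had 53.1 ± 45.1 and 79.5 ± 22.2 CPM, lower in expanded clones in 7 of 8 libraries, by a log2 of -1.16 (exact permutation test, adjusted P = 0.0391). The 4 libraries without PancVAX had 9.10 to 18.1 CPM in expanded and 49.5 to 71.6 CPM in single clones. In those with PancVAX the values were 74.0 to 115 and 92.3 to 112 CPM, lower in expanded clones in 3 of 4. Whether the gap differed with PancVAX was not tested. With 7 libraries the difference in Cxcr3 was -0.95 without the library of both antibodies, and P was 0.0781 (exact permutation test) without that library or any of the isotype control, anti-PD-1, anti-CTLA-4 and PancVAX with both antibodies. Expansion went with class, at 85.9% of exhausted-like, 58.6% of cytotoxic-like and 5.1% of naive-like cells. Within exhausted-like cells Cxcr6 showed no difference past the threshold (-0.01, exact permutation test, adjusted P = 0.9062), while Cxcr3 was lower in expanded clones in 8 of 8 libraries (13.4 ± 3.50 and 27.5 ± 10.8 CPM, exact permutation test, adjusted P = 0.0312). The values of single clones there rest on only 2 to 11 UMIs of Cxcr3 from 13 to 53 cells a library. Within cytotoxic-like cells, with 5 libraries and a smallest possible P of 0.0625, the differences were -0.06 for Cxcr3 and 0.32 for Cxcr6.

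Genes that work with these members were described from fixed lists. The interferon gamma pathway in macrophage-like cells (the receptor chains Ifngr1 and Ifngr2, the kinases, Irf1 and other genes of the response) had 12 of 13 genes tested and 0 called over the 8 pools, with a median log2 fold change of 0.039 against 0.0053 for all genes. For PancVAX against isotype control 2 of 12 were called in these cells, Gbp2 and Irf1, both higher (0.87 and 0.51, edgeR, adjusted P = 7.31e-06 and 0.0147), where 0.563% of all genes were called. In neutrophil-like cells 0 of 11 were called in either comparison, where 0.182% of all genes were called over the 8 pools and 0.252% in the pair. The enzymes that cleave the ligands, Adam10, Adam17 and Dpp4 (a peptidase that shortens CXCL9 and CXCL10), were not called for PancVAX in any class, and were at -0.14, -0.05 and -0.02 in macrophage-like cells.

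Of 23 partners of the receptors in transcription, signaling and homing, all 23 were tested in CD8+ T cells, where 5 rose and 2 fell with PancVAX (median 0.204 against 0.0081 for all genes, of which 10.9% were called), in sums over the changed mixture of clusters given above. The rises were in Ccr2 (3.08), a receptor for monocyte chemokines, S1pr1 (2.00), which guides cells out of tissue, Klf2 (1.02), Cx3cr1 (0.93) and the integrin gene Itgae (0.85). The falls included the arrestin gene Arrb1 (-1.03). Tbx21, which encodes the T-bet factor that drives Cxcr3, was at 0.15 (edgeR, adjusted P = 0.354). In cytotoxic CD8+ T–like cells 7 of 22 rose, among them Ccr2 (1.45), S1pr1 (1.60) and Ifng (0.97), and 3 fell, among them Eomes (-2.13). In exhausted-like cells Ccr7 (2.07) was the only gene of 21 that was called. In cytotoxic-like and exhausted-like cells 2.29% and 0.362% of all genes were called. In CD4+ helper T–like cells, where 3.9% of all genes were called, 3 of 17 rose (Ccr2 1.48, S1pr1 0.83 and Bhlhe40 0.53) and 4 fell, among them Ccr7 (-1.47) and Grk2 (-0.69). In regulatory T–like cells, where 0.302% of all genes were called, 0 of 19 were called. Ccr7, S1pr1, Cx3cr1, Ccr2, Itgae and Eomes are also class markers that were among the genes on which clusters were drawn. In monocyte-like cells, where 0.166% of genes were called, 0 of 11 interferon gamma pathway genes were called (median 0.101).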

How the data were processed

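The authors aligned reads to mm10 with Cell Ranger 4.0.0, per the submitters' processing notes, which also name Seurat, and deposited raw UMI counts for each gene and barcode and TCR tables. Cells were kept with the limits of the study, including no UMI of a hemoglobin gene (1000 to 10000 UMIs, 200 to 3000 genes, under 10% mitochondrial UMIs). Clusters (scikit-learn 1.9.0 and igraph 0.11.9, 2000 variable genes, 25 components, Louvain resolution 0.6) were named from marker genes. Before clustering, cell cycle scores were regressed out and the components were corrected for preparation by the Harmony method. Cells over the upper limits took the class of their 15 nearest neighbors. Doublets were called with Scrublet (scanpy 1.11.5) and kept, and leaving them out was an alternative.

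UMIs were summed by class over both libraries of a treatment, for classes with at least 20 cells in a pool, or by library with at least 10 cells. Sums were tested with edgeR 4.0.16 (quasi-likelihood, TMM, filterByExpr, Benjamini-Hochberg over all genes of a class) in R 4.3.3. The model held a term for each of the 3 agents, without interactions. Pairs of treatments and preparations were tested on the 16 libraries. A call needed an adjusted P below 0.05 and a log2 fold change above 0.5 in size. Levels of neighboring classes and clones were compared on log2(CPM + 1) by exact permutation of signs. Neighbors were adjusted within a member. Clones were adjusted over both receptors in CD8+ T cells, and separately over both receptors in exhausted-like and cytotoxic-like cells. A clone was the cells of 1 library with the same TCR beta V gene and CDR3. The edgeR script was tested on simulated counts.

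The genes named are the 5 members, 13 genes of interferon gamma signaling, 23 partners of the receptors, 3 proteases, and the 5 genes most like each member across classes among those at 10 CPM or more in a class. Of Cxcl11, also named beforehand, values were not analysed here. The values of some genes of these lists are not reported here. The members and lists were chosen with earlier results of these data known. Neutrophil counts are shallow, and intervals cover the spread between pools only.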

Additional observations from a re-analysis of the deposited data

Results flagged for a closer look

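Among 54 groups of 4 pools (a member in a class, with or without PancVAX), 5 had 1 pool whose gap to the nearest other pool passed the 95% critical value of Dixon's ratio for 4 values, which chance does in about 1 of 20 groups. Cxcl10 in neutrophil-like cells was at 937.53 CPM in the PancVAX pool, where the other pools with PancVAX had 415.38 to 446.61 CPM (ratio 0.94). This pool enters both calls of Cxcl10 in neutrophil-like cells. Cxcl10 in macrophage-like cells was at 173.73 CPM with anti-PD-1 alone, and the other pools without PancVAX had 211.89 to 216.04 CPM (ratio 0.902). In monocyte-like cells Cxcl10 was at 185.31 CPM with PancVAX and both antibodies, below the 319.68 to 339.2 CPM of the others (ratio 0.873). Cxcr3 in CD4+ helper T–like cells was at 87.01 CPM with anti-CTLA-4 alone, against 170.01 to 174.99 CPM in the other pools without PancVAX (ratio 0.943), from 57 cells. Cxcl16 in mature dendritic-like cells was at 904.77 CPM with anti-CTLA-4 alone, above the 704.46 to 731.91 CPM of the others (ratio 0.863).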

How the results depend on the processing

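The effect of PancVAX on Cxcr3 in CD8+ T cells kept its call in 18 of 18 alternatives (1.56 to 1.81 on the log2 scale), the pair against isotype control in 6 of 6 (1.78 to 2.38), and Cxcl9 in macrophage-like cells in that pair in 6 of 6 (0.67 to 0.95). The 18 include the exact permutation test, whose P is fixed by the lack of overlap. Of 383 alternatives to the 25 member effects that were not called, 348 kept direction and side, 11 passed the threshold and 24 changed sign. For each change below the cause was not tested. Alternatives for pairs of treatments and clones, the left-out libraries of the UMI shares, and macrophage-like cells without their low-UMI cluster were chosen after seeing the data.

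The number of called treatment effects (2) was 10 with no filter on low counts, 1 with a mitochondrial limit of 5% and 2 to 7 with a pool left out (7 without the isotype control pool). For preparation (2) it was 0 with no treatment block, 5 with no filter and 1 to 2 with a treatment left out. For pairs (5) it was 3 in DESeq2, 21 with no filter and 3 to 6 with a library left out. Of 49 neighbor pairs in the order of levels 9 passed, as did 4 of 49 with thinned shares and 3 of 24 with marker gates, which form fewer and broader classes.

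Cxcr6 in CD4+ helper T–like cells was 0.63 to 1.11 with a pool left out and not past the threshold in whole tumor (0.93) or Percoll libraries alone (0.76), with the mitochondrial limit of 5% (0.65) or with gates (0.33). Without the treatment block Cxcl10 in Sox9 stromal-like cells (0.81) and Cxcl9 in endothelial-like cells (-1.19) did not pass for preparation, and with a treatment left out Cxcl9 was -1.41 to -1.21. With a library left out, PancVAX against isotype control in neutrophil-like cells gave 1.04 to 2.19 for Cxcl9 and 0.95 to 1.8 for Cxcl10, and both antibodies against PancVAX gave -1.48 to -0.62 for Cxcl10 (-1.10 in DESeq2). With no filter or with the whole tumor library of PancVAX left out, Cxcl9 of the latter pair passed (-0.97 and -1.37).

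Effects that were not called changed sign as follows. Cxcr3 was 0.07 in CD4+ helper T–like cells with gates and -0.26 in regulatory T–like cells of whole tumor libraries. With a pool left out, Cxcr6 was -0.09 to 0.16 in cytotoxic-like and -0.02 to 0.21 in exhausted-like cells. In macrophage-like cells Cxcl9 was -0.13 to 0.32 and Cxcl16 -0.04 to 0.02, with Cxcl16 at 0.00 in 16 libraries and in either preparation alone, 0.01 without upper limits or the low-UMI cluster, and 0.02 in the exact test. In neutrophil-like cells Cxcl9 was -0.19 to 0.5 and Cxcl10 -0.28 to 0.25, and in Sox9 stromal-like cells Cxcl10 was -0.17 to 0.68, and -0.12 in whole tumor libraries.

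Without upper limits the macrophage-like share of UMIs was 52.13% for Cxcl9, 5.47% for Cxcl10 and 66.87% for Cxcl16, and the share of Cxcl10 was 54.51% in the Il11 Lif cluster, 33.23% in Sox9 stromal-like and 1.06% in neutrophil-like cells. In clones, Cxcr3 was -1.37 to -0.95 with a library left out and -0.06 in cytotoxic-like cells alone, and Cxcr6 was -0.01 in exhausted-like and 0.32 in cytotoxic-like cells alone.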
